A study of Mus musculus with 10 samples.

Results

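The chromatin loops anchored at Klf4 and in the gene-poor DNA around it were followed through a macrophage priming model. Klf4 (ENSMUSG00000003032.8) lies on mouse chromosome 4 at chr4:55527143-55532466 of GRCm38, on the minus strand, with its transcription start site (TSS) at 55532466. Every line of the 5 loop lists with an anchor bin overlapping 100 kb on either side of that site was taken. This gave 308 different bin pairs of the 153264 in the series. M0[CTR] held 66 of them, M2[IL-4] 116, M2p[pIL-4] 105, IFNG 92 and pIL-4 + IFNG 107.

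The cells were macrophages grown with M-CSF from bone marrow of wild-type C57BL/6 female mice 2 to 3 months old, and the labels place the treatments on day 6 of culture. M0[CTR] cells stayed untreated. M2[IL-4] cells received interleukin-4 at 20 ng/ml for 24 h, and M2p[pIL-4] cells were washed after the same exposure and rested for another 24 h. IFNG cells received interferon gamma at 20 ng/ml for 3 h, and pIL-4 + IFNG cells received it after IL-4, washing and rest. Hi-C joins DNA ends that lie close together in the nucleus and counts the joined pairs. A loop here is a pair of bins in the authors' lists, whose caller and threshold are not given. Each group had 2 replicates but 1 loop list, so no spread between replicates could be had and no test of a condition was possible. Lists of contacts hold no expression values, and the labelled cell type was not checked by markers.

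KLF4 is a zinc finger transcription factor of the Krüppel-like family. In macrophages its gene is induced by IL-4 through STAT6, and the protein acts together with STAT6 at genes of alternative activation. Loops in mammalian chromatin are formed largely by cohesin, which extrudes DNA until it meets the zinc finger protein CTCF, most often at CTCF motifs that point towards each other. Other loops join promoters and enhancers.

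Bins are 10 kb long and are numbered here from the bin that holds the Klf4 TSS, which is bin 0, chr4:55530001-55540000. Positive numbers lie at higher coordinates, which is upstream of Klf4. The window ran from bin -10 to bin +10 and held 21 bins. The gene body runs over bins -1 and 0. No other protein-coding TSS lay within 100 kb of that of Klf4, where the median protein-coding gene had 3. Within 1000 kb there were 2, against a median of 29, and 1.40% of the 21755 protein-coding genes on the autosomes and X had as few. The nearest was that of Rad23b, a nucleotide excision repair gene, 182 kb away in bin -18. On the other side the next protein-coding TSSs were those of Gm26657, Actl7b and Actl7a in bin +121, about 1210 kb away. The lincRNA genes Gm12510, Gm12511 and Gm12506 start in bins -7, +3 and +7.

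The sequence before the Klf4 start is shown first because the TSS bin is one of the main anchors below. It is the 250 bases ahead of the RefSeq start in GRCm38.p6, chr4:55532476-55532725, on the minus strand. Capitals mark matches to CCCCGCCC on either strand, a GC-rich box of the kind that KLF and SP factors bind.
Klf4 promoter: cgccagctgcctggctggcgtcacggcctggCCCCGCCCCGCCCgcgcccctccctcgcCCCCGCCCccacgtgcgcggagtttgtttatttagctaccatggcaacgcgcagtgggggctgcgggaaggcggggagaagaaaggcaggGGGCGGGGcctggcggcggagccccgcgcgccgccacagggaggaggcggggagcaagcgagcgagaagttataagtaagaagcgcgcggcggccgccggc
The box occurred 4 times, with overlaps between neighbouring matches, and 74% of the bases were G or C. Of 32851 promoter sequences of the same length, 16.1% held the box.

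CTCF consensus matches in the TSS bin and in bins +29, +69, +114 and +115 are shown next, as sequence at ends of the loops. Bins +28 and +68 held more contacts with the window than bin +114 in each list and had no match. Matches in bins +64, +83 and +95, where loops also ended, are not shown. The consensus has 14 bases, 1 mismatch was allowed, and both strands were searched. Each line reads 5′ to 3′ on the strand of the match, with the match in capitals.
TSS bin, chr4:55530448-55530461, minus strand: agcctcagCCGCCAGGTGGCGGgctgatgg
Bin +29, chr4:55821493-55821506, minus strand: gcactggaCAAGCAGGTGGCACacagacat
Bin +29, chr4:55824271-55824284, minus strand: tgccagggCCAGCAGAGGGGAGgagaggca
Bin +69, chr4:56222651-56222664, minus strand: tggggcaaCCACTAGGTGGGGCtgtggccg
Bin +114, chr4:56676816-56676829, plus strand: tagaaagaCCAGTAGAAGGCACacatctca
Bin +115, chr4:56681724-56681737, plus strand: cagacacaCCAGAAGAGGGCAGcccattca
Each of these held 1 mismatch. The match in the TSS bin lies within Klf4. It is on the minus strand and so points away from the other bins shown, which lie at higher coordinates. Of the 21 bins of the window, 4 held a match (19.0%), which were bins -8, -7, 0 and +3. Among the 21 partner bins used in all 5 lists, 7 held one (33.3%). The share was 21.4% of 255946 bins of the autosomes and X and 31.4% of 70650 bins that anchor a loop in any list. Bins -3 to -1, where many loops started, had no match. Matches are letters only, and binding of CTCF was not measured here. GATC sites, where the enzyme MboI cuts, numbered 16 to 39 per window bin with a median of 24, the same as the median of all bins.

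Loops near Klf4 formed a fan to one side. In M0[CTR] all 66 loops ran upstream, and in IFNG and pIL-4 + IFNG all 92 and 107 did. In M2[IL-4], 115 ran upstream and 1 had both anchors in the window. M2p[pIL-4] had 104 and 1. No list had a loop from the window to lower coordinates, where Rad23b lies. Of genes with 30 or more loops, 19.1% to 22.7% had all of them to one side, depending on the list.

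**Figure D1:**
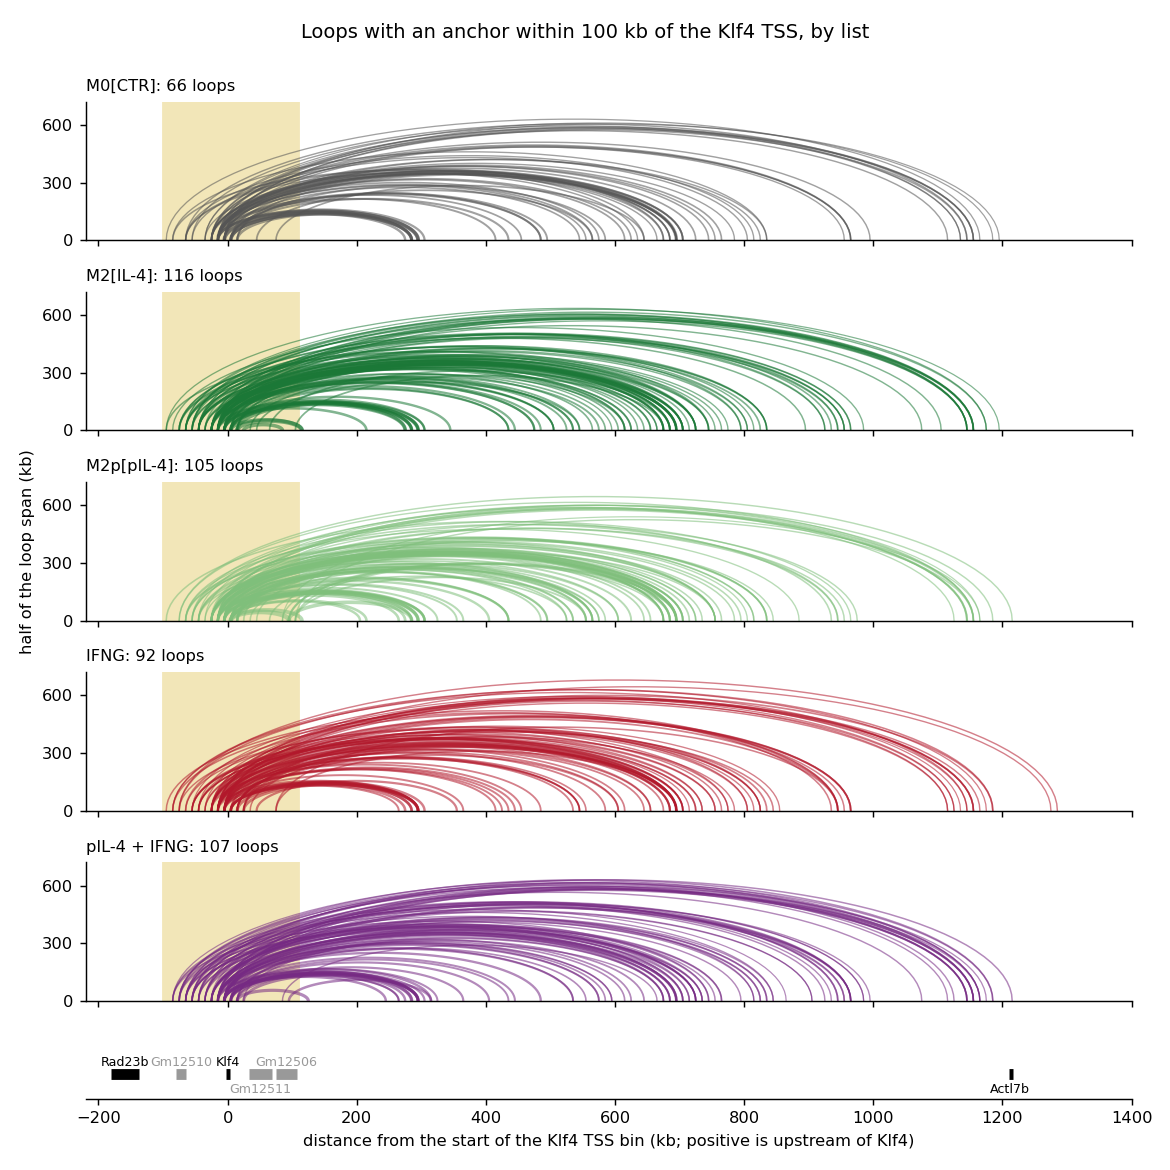
Loops with an anchor within 100 kb of the Klf4 TSS in each of the 5 lists, drawn as arcs over the distance from the start of the TSS bin in kb, with thicker lines for more contacts and the window shaded. The height of an arc is its radius in kb, and selected genes are drawn at the foot, protein-coding in black and lincRNA in grey. In every list the arcs leave the window to the right, and at most 2 in any list end at or beyond the bin of Actl7b.

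Few loops ran past either end of the stretch around Klf4. Counting loops of any anchor, 58 loops in M0[CTR], 99 loops in M2[IL-4], 75 loops in M2p[pIL-4], 71 loops in IFNG and 95 loops in pIL-4 + IFNG spanned the TSS bin. At 200 kb upstream the numbers were 74, 126, 112, 98 and 124, in the same order. At 1100 kb they were 14, 18, 15, 16 and 24, and at 1200 kb, just short of Actl7b, 1, 1, 2, 2 and 1. At 200 kb downstream, near the start of Rad23b, they were 1, 1, 0, 0 and 0. Between 100 kb downstream and 1200 kb upstream, the only protein-coding TSS was that of Klf4. Loops that reached a protein-coding TSS at the far end were few. Bin +121, with Actl7b, Gm26657 and Actl7a, had 1 loop of 10 contacts in M2p[pIL-4] and 1 of 11 in pIL-4 + IFNG.

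**Figure D2:**
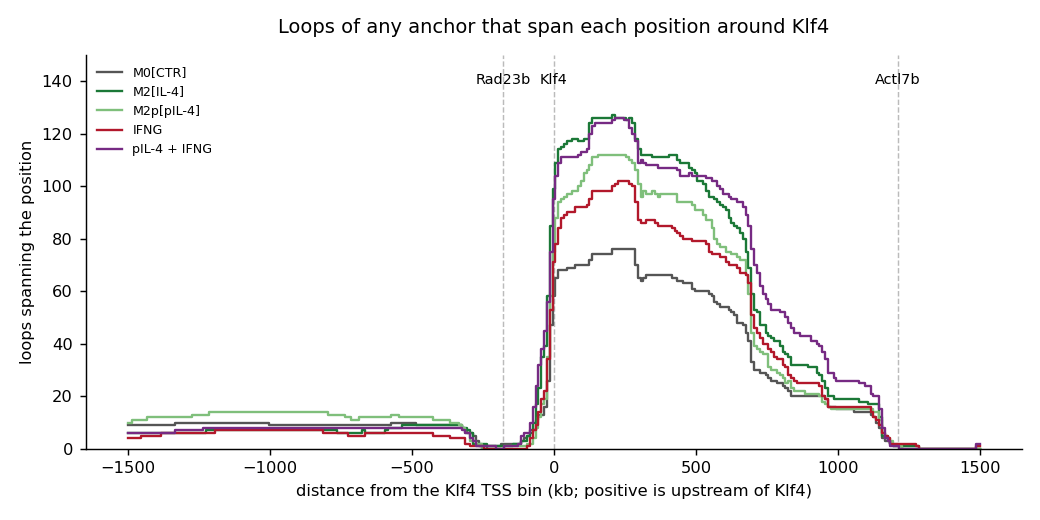
Number of loops of any anchor that span each 10 kb position, plotted against the distance from the Klf4 TSS bin in kb, 1 line per list. All 5 lines rise at Klf4 and fall to at most 2 by 1200 kb upstream, and M2[IL-4] and pIL-4 + IFNG lie highest at 200 kb.

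The loops were long and held few contacts each. Their median span was 710 kb in M0[CTR], 710 kb in M2[IL-4], 690 kb in M2p[pIL-4], 750 kb in IFNG and 780 kb in pIL-4 + IFNG, against 160 to 180 kb over whole lists. Loops of 500 kb or more made up 77.3%, 83.6%, 76.2%, 81.5% and 81.3% of those near Klf4 in that order, and 10.5% to 12.1% of whole lists. The median count was 13, 13, 14, 13 and 12 contacts, where the median of each list was 32. Counts fall with span, so strength was taken as the count over the median count of loops of the same list with a span within 10%. The median strength was 1.00 to 1.07, so loops near Klf4 held about as many contacts as others of their length.

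Few genes had as many loops. The number near Klf4 ranked 619 of 21755 protein-coding genes in M0[CTR], rank 75 in M2[IL-4], rank 204 in M2p[pIL-4], rank 195 in IFNG and rank 184 in pIL-4 + IFNG, where the median gene had 6 to 8. Among the 645 protein-coding genes with as few coding neighbours within 500 kb, Klf4 ranked between 1 and 6, and the median was 0.

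Scaled by list length, M0[CTR] held 1.24 Klf4 loops per 1000 loops, M2[IL-4] 1.99, M2p[pIL-4] 1.55, IFNG 1.67 and pIL-4 + IFNG 1.60. M0[CTR] was lowest and M2[IL-4] highest, with the other 3 between them. Summed contacts of these loops were 991, 1793, 1725, 1310 and 1495. After adding 1 to each number, the M2[IL-4] list had 1.60 times the loops of M0[CTR], a log2 ratio of 0.68 with a 95% interval of 0.24 to 1.15. That interval and those below cover counting error only, with loops taken as independent, which neighbouring bin pairs are not. The ratio passed the 1.5-fold mark that was used for a call. Of 11857 genes with 10 or more loops in these lists, 8.49% did so, and Klf4 ranked 785. Among the 1591 genes with 100 or more it ranked 12, and 1.26% passed.

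The other comparisons did not pass. M2p[pIL-4] to M0[CTR] was 1.25-fold (log2 0.32, -0.13 to 0.79), and 7.18% of genes passed. M2p[pIL-4] to M2[IL-4] was 0.779-fold (log2 -0.36, -0.76 to 0.03), with 7.78% of genes passing upwards and 6.21% downwards. IFNG to M0[CTR] was 1.35-fold (log2 0.43, -0.03 to 0.92), with 9.85% passing. The lists of primed cells with and without IFNG had close numbers. Their ratio, pIL-4 + IFNG to M2p[pIL-4], came to 1.03-fold (log2 0.04, -0.36 to 0.45; 8.82% passing) and that of pIL-4 + IFNG to IFNG to 0.954-fold (log2 -0.07, -0.48 to 0.35; 7.53% passing upwards and 5.13% downwards). These 6 comparisons share lists, and differences between them were not tested.

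**Figure D3:**
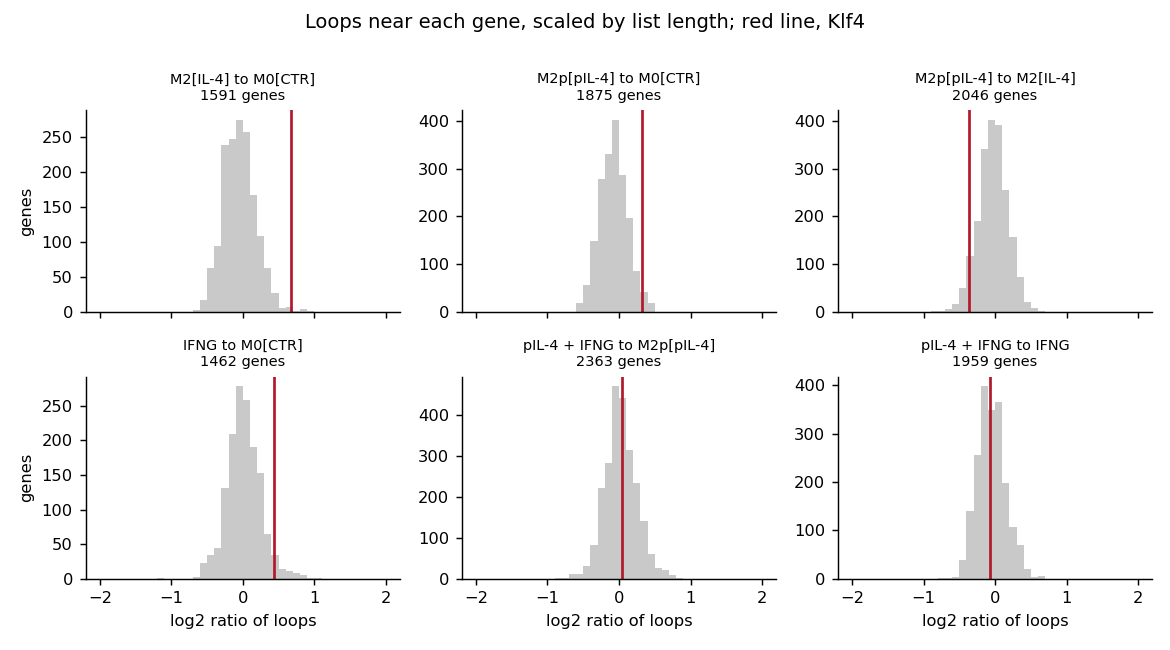
Log2 ratio of loop numbers within 100 kb of a TSS for each of the 6 pairs of lists, scaled by list length, over genes with 100 or more loops in the pair of lists (grey bars, number of genes), with Klf4 as a red line. Klf4 lies at 0.68 for M2[IL-4] to M0[CTR], in the upper tail, and at 0.04 and -0.07 for the comparisons of pIL-4 + IFNG.

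The call for M2[IL-4] depended on how loops were counted. Merging touching bin pairs of a list left 29 loops in M0[CTR], 40 loops in M2[IL-4], 47 loops in M2p[pIL-4], 42 loops in IFNG and 40 loops in pIL-4 + IFNG, and the ratio of M2[IL-4] to M0[CTR] fell to 1.26. With anchors in the TSS bin alone it was 1.26 too. With loops of at least 20 contacts, which left 10 loops in M0[CTR], 22 loops in M2[IL-4] and 25 loops in M2p[pIL-4], it was 1.89, and M2p[pIL-4] to M0[CTR] passed at 1.83. Without scaling, M2p[pIL-4] to M0[CTR] was 1.58.

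Most loops started close to the gene, and M2[IL-4] and M0[CTR] differed by a larger factor farther away. Bins -3 to +1 anchored 52 loops in M0[CTR], 75 loops in M2[IL-4], 75 loops in M2p[pIL-4], 62 loops in IFNG and 64 loops in pIL-4 + IFNG. Bin -2, 10 to 20 kb below the TSS bin and downstream of the gene, anchored 21, 27, 23, 19 and 19, the most of any bin in 4 lists and 1 fewer than bin -1 in pIL-4 + IFNG. Bins -10 to -4, which lie downstream and include Gm12510, anchored 12, 36, 18, 22 and 39. M0[CTR] was lowest there, and M2[IL-4] and pIL-4 + IFNG were highest. Bin -5 anchored no loop in M0[CTR], while M2[IL-4] had 12 and the others 5, 5 and 6. The upstream bins +2 to +10 anchored 2, 5, 12, 8 and 4. Leaving out bins -3 to -1 gave 24, 56, 49, 43 and 57 loops. To M0[CTR] that was 2.09-fold with IL-4, 1.58-fold after washout and 1.71-fold with IFNG alone. This cut was chosen after the values were seen. The bins left out anchored 10, 21 and 11 of the 66 loops in M0[CTR], so leaving them out favours higher ratios. The same holds for the zones outside bins -3 to +1, where M0[CTR] had only 12 and 2 loops.

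**Figure D4:**
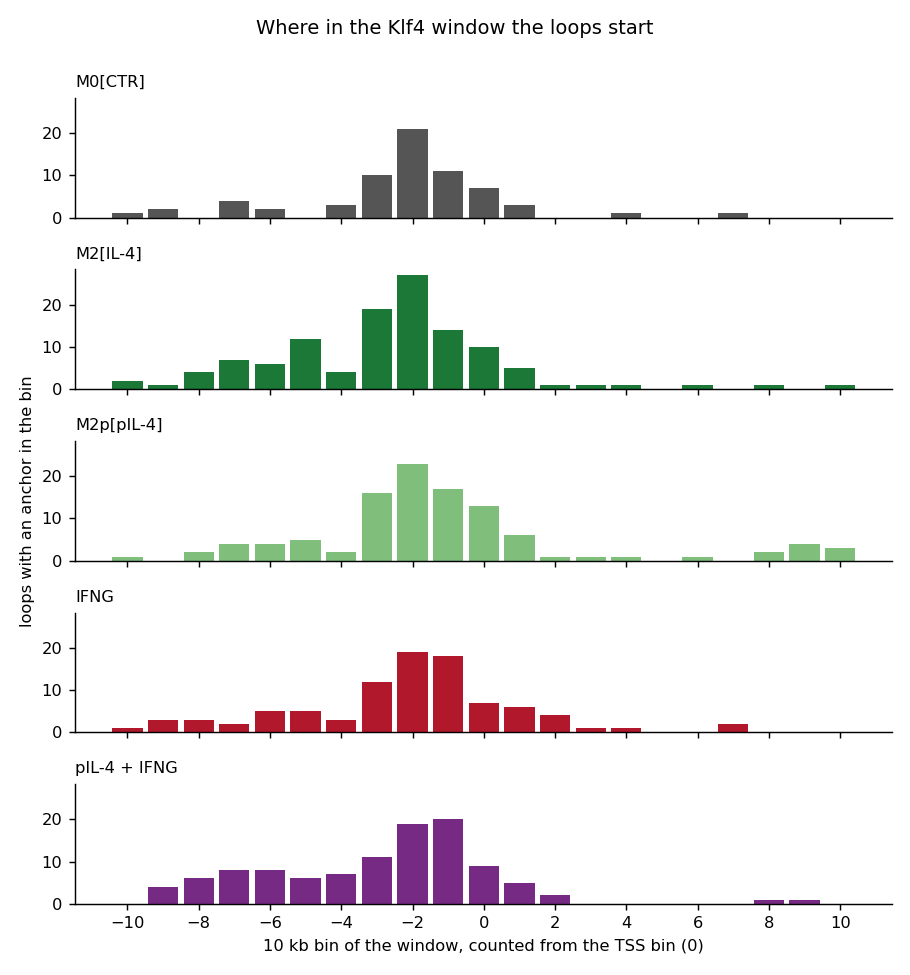
Number of loops anchored in each 10 kb bin of the Klf4 window, with 1 panel per list and bin 0 holding the TSS. In each list the tallest bar stands at bin -2 or -1, and M2[IL-4] has 12 loops at bin -5, where M0[CTR] has 0.

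Some far ends of the fan recurred across lists, and how often this happens elsewhere in the series was not measured. The loops used 85 partner bins, of which 21 were used in all 5 lists, in 12 runs of neighbouring bins. They took 65.2% of the loops in M0[CTR], 55.2% of them in M2[IL-4], 58.1% of them in M2p[pIL-4], 50% of them in IFNG and 50.5% of them in pIL-4 + IFNG. M0[CTR] had the fewest partner bins, 42 against 52 to 56, so choosing bins used in all lists favours a high share in M0[CTR]. The nearest run was bins +27 to +30, chr4:55800001-55840000, which overlaps the printed matches of bin +29. It had 9 loops with 273 contacts in M0[CTR], 10 loops with 306 contacts in M2[IL-4], 11 loops with 311 contacts in M2p[pIL-4], 9 loops with 239 contacts in IFNG and 9 loops with 251 contacts in pIL-4 + IFNG. This end of the fan was almost level across lists.

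The run with the most loops was bins +67 to +70, chr4:56200001-56240000, where bin +69 overlaps the lincRNA gene 2310081O03Rik. It had 13 loops with 204 contacts in M0[CTR], 23 loops with 350 contacts in M2[IL-4], 22 loops with 353 contacts in M2p[pIL-4], 17 loops with 261 contacts in IFNG and 13 loops with 202 contacts in pIL-4 + IFNG. M2[IL-4] and M2p[pIL-4] were highest here. By unscaled number pIL-4 + IFNG was level with M0[CTR], though its list was longer, at 67000 loops against 53424. Contacts per loop stayed between 15.2 and 16.0, so the sums moved with the number of bin pairs called. The most distant run, bins +114 and +115, had 5, 10, 7, 5 and 9 loops. Bins not used in all lists took 23 loops in M0[CTR] and 52, 44, 46 and 53 in the others. The way these bins were chosen favours a low number in M0[CTR].

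The TSS bin itself had 7 loops with 167 contacts in M0[CTR], 10 loops with 225 contacts in M2[IL-4], 13 loops with 344 contacts in M2p[pIL-4], 7 loops with 149 contacts in IFNG and 9 loops with 182 contacts in pIL-4 + IFNG. M2p[pIL-4] was highest and IFNG and M0[CTR] were lowest in loops. To bins +26 to +30 it held 99, 126, 111, 119 and 106 contacts. Its loop to bin +69 held 15 contacts in M0[CTR], 14 contacts in M2[IL-4], 15 contacts in M2p[pIL-4] and 16 contacts in IFNG and was not called in pIL-4 + IFNG. To bin +43, which overlaps Gm12519, it held 19, 17 and 21 contacts in the first 3 lists and 16 in pIL-4 + IFNG. Across lists these 2 long loops differed by at most 5 contacts where they were called. The other 13 bin pairs of the TSS bin at 400 kb or more were in 1 list each, with 9 to 20 contacts. Under 400 kb, 6 of 9 were in more than 1 list. A loop to bin +11 held 39 contacts in M2[IL-4] and 43 contacts in M2p[pIL-4], and 1 to bin +9 held 56 contacts in M2p[pIL-4]. Loops to bins +20 and +21 held 24 and 26 contacts in M2p[pIL-4], and the only other loops of the TSS bin under 400 kb ran to bins +26 to +30.

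Short loops on the upstream side were called in the lists of cells that had met IL-4. Under 200 kb there were 0 loops in M0[CTR], 3 loops in M2[IL-4], 3 loops in M2p[pIL-4], 0 loops in IFNG and 1 loop in pIL-4 + IFNG. Besides the 3 calls of the TSS bin just given, they were bin +1 to +11 with 50 contacts and bin +2 to +8 with 39 contacts in M2[IL-4], bin +9 to +28 with 40 contacts in M2p[pIL-4], and bin +1 to +12 with 34 contacts in pIL-4 + IFNG. Their strengths were 0.75 to 1.38. M0[CTR] called loops of these spans elsewhere with as few as 15 to 22 contacts. This pattern was noticed after the values were seen. It held for 133 of 21755 genes (0.611%), and the reverse pattern, in M0[CTR] and IFNG and in none of the other 3 lists, held for 44 (0.202%). The median gene had 3 or 4 loops of this length, and 34.4% to 38.2% of genes had none. With 1 to 3 loops per list, and 3 lists on one side and 2 on the other, no difference between conditions could be tested.

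No bin pair near Klf4 passed the test of its contacts between lists, which took only bin pairs called in both. A pair called in only 1 list of a comparison has no count in the other, so gain or loss of a call was not tested. Bin pairs called in all 5 lists numbered 8, and each ran from bin -2, -1 or 0 to bin +28, +29, +68, +69 or +115. The TSS bin held 35 contacts with bin +28 in M0[CTR], 38 contacts in M2[IL-4], 26 contacts in M2p[pIL-4], 25 contacts in IFNG and 37 contacts in pIL-4 + IFNG. With bin +29 it held 40, 26, 38, 27 and 32 in the same order. These 2 pairs placed different lists first and last.

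Bin -1, with the 3′ part of the gene, held 32, 31, 29, 27 and 26 contacts with bin +28 and 43, 31, 28, 25 and 34 with bin +29. With bin +69 it held 19, 24, 30, 29 and 26, and with bin +68 15, 20, 20, 20 and 14. So M0[CTR] was highest with the nearer partner and lowest or next to lowest with the farther one. Bin -2 held 38, 27, 21, 24 and 26 contacts with bin +69, and 12, 18, 17, 11 and 14 with bin +115. The bin pair -2 to +69 was the strongest loop near Klf4 in M0[CTR] (strength 3.17), M2[IL-4] (2.08) and pIL-4 + IFNG (2.00). In M2p[pIL-4] the strongest was -3 to +114 with 21 contacts (2.33), and in IFNG -1 to +69 with 29 (2.23).

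**Figure D5:**
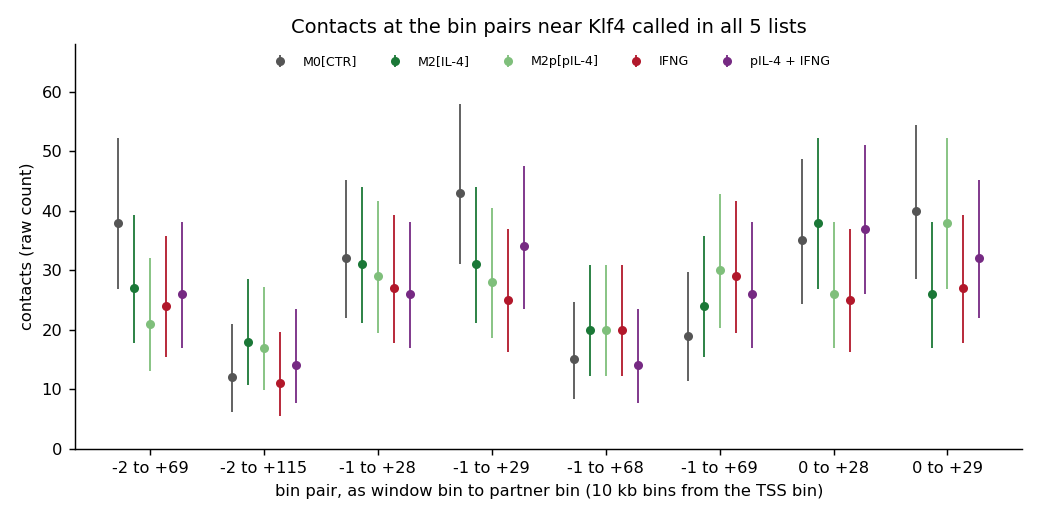
Raw contacts at the 8 bin pairs near Klf4 called in all 5 lists, named as window bin to partner bin, with exact 95% Poisson intervals for counting error as bars. Within each pair the intervals of the 5 lists overlap.

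Over these 8 pairs the sums were 234, 215, 209, 188 and 209 contacts, or 91.9%, 89.3%, 80.3% and 89.3% of M0[CTR] in the treated lists. Over all 14063 bin pairs of the series called in 5 lists the sums were 99.8%, 104%, 103% and 102% of M0[CTR]. Each bin pair called in both lists of a comparison was tested with a two-sided exact binomial test, adjusted over all such bin pairs by Benjamini-Hochberg. The test compares the lists, not the conditions, and how large a change it can call at counts as low as these was not measured. Taking only pairs called in both lists favours small ratios. Of 25, 25, 29, 30, 31 and 42 bin pairs near Klf4 in the 6 comparisons, 0 passed an adjusted p of 0.05, and 3 in all had an unadjusted p under 0.05. In the whole series 0% of bin pairs passed in 5 comparisons and 0.00797% in IFNG to M0[CTR], 2 of 25079. Those at an unadjusted p under 0.05 ranged from 420 of 25079 there to 571 of 32335 in pIL-4 + IFNG to M2p[pIL-4]. Near Klf4 they were 1 of 30, 1 of 25 and 1 of 25 in the 3 comparisons below. Whether that differs from the series was not tested. The 3 near Klf4 were bin 0 to +27 for M2[IL-4] to M0[CTR] (42 and 24 contacts, log2 0.81), bin -2 to +69 for M2p[pIL-4] to M0[CTR] (21 and 38, log2 -0.90) and bin -1 to +29 for IFNG to M0[CTR] (25 and 43, log2 -0.83). Their unadjusted exact p were 0.0353, 0.0278 and 0.0282. The median log2 ratio at Klf4 bin pairs was 0.00 in the comparison of M2[IL-4] to M0[CTR], where 13 of 30 pairs had more contacts, 6 as many and 11 fewer, and -0.14 to -0.04 for the other 5 comparisons.

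Loops called in 1 list made up most of the locus. Of the 308 bin pairs, 208 were in 1 list, 55 in 2, 20 in 3, 17 in 4 and 8 in 5. The share in 1 list was 67.5%, against 55.5% over the series. At spans of 500 kb or more it was 67.7% near Klf4 and 74.5% over the series. M0[CTR] had 25 bin pairs of its own, M2[IL-4] 48, M2p[pIL-4] 48, IFNG 35 and pIL-4 + IFNG 52. These were 37.9% to 48.6% of the loops near Klf4, against 24.97% to 30.5% of whole lists and 48.6% to 52.3% of their loops of 500 kb or more. Called in all 3 lists of IL-4-exposed cells and in neither other list were 5 bin pairs, 1.62% here and 1.45% over the series. They were bin -3 to +68 (13 contacts with IL-4, 17 after washout and 13 in pIL-4 + IFNG), -3 to +79 (10, 12 and 10), -3 to +83 (10, 10 and 13), -2 to +114 (13, 10 and 12) and -1 to +27 (29, 28 and 24). Another 5 were called in M0[CTR] and IFNG alone, 1.62% here and 1.21% over the series.

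Loops of different lists were next matched when both anchors lay within 25 kb. In M0[CTR] a match was found for 94 of the 116 M2[IL-4] loops, 81.0% (exact binomial 95% interval 72.7 to 87.7), and for 86.4% over that whole list. The share was 79.0% of M2p[pIL-4] loops near Klf4, 82.6% of IFNG loops and 78.5% of pIL-4 + IFNG loops, against 85.9%, 87.0% and 84.9% over those lists. At spans of 500 kb or more, 82.5% of M2[IL-4] loops near Klf4 were matched and 69.2% over the list. The unmatched loops lay mostly at the rim of the window. With an anchor within 50 kb of the TSS 91.5% of M2[IL-4] loops were matched, and 36.4% of the 22 others were. M0[CTR] itself had 10 loops in those outer 50 kb. For M2p[pIL-4] these shares were 91.8% and 25%, for IFNG 90.8% and 43.8%, and for pIL-4 + IFNG 91.1% and 42.9%.

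Of the 22 M2[IL-4] loops near Klf4 with no match in M0[CTR], 19 had a match in M2p[pIL-4] after washout. That was 86.4% (65.1 to 97.1), against 46.7% over the series. For series loops of 500 kb or more alone the share was 31.3%, while the 22 near Klf4 also included shorter loops, all kept. Bins -10 to -4 anchored 13 of the 22, bins -3 to +1 5 and bins +2 to +10 4. The 19 kept loops held 7 to 50 contacts in M2[IL-4], with a median of 12. They included the short loops 0 to +11, +1 to +11 and +2 to +8. The 3 that were not kept were bin -10 to +72, -7 to +72 and -2 to +107, with 12, 12 and 10 contacts. M2p[pIL-4] had 4 loops near Klf4 that matched neither M0[CTR] nor M2[IL-4], with 7 to 16 contacts, 3.81% of its loops there and 8.35% over the list.

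The kept share rested on the matching distance. In the same bins it was 21 of 86, or 24.4%, against 29.8% over the series and 16.5% at spans of 500 kb or more. Within 50 kb it was 6 of 6, against 52.2% and 35.5%. These shares near Klf4 again cover loops of all spans. The locus was also crowded. Between the window and bins +26 to +121, 44.2% of all 2016 bin pairs lay within 25 kb of an M2p[pIL-4] loop and 33.8% of an M0[CTR] loop, whether or not they were called. IFNG had 16 loops near Klf4 without a match in M0[CTR], with a median of 12 contacts, or 17.4% against 13.0% over the list. pIL-4 + IFNG had 9 without a match in M2p[pIL-4], with a median of 11, or 8.41% against 11.4%.

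Among the 17 members of the KLF family, all of which matched the annotation, 12 had 10 or more loops in M2[IL-4] and M0[CTR] together. Of these, 3 passed 1.5-fold upwards, Klf4, Klf6 and Klf13, and 1 downwards. Over all genes 8.49% passed upwards and 7.43% downwards. The list had a median log2 ratio of 0.09 against -0.02 over all genes. Klf6, a broadly expressed member, had 19 loops in M0[CTR], 40 loops in M2[IL-4], 33 loops in M2p[pIL-4], 27 loops in IFNG and 32 loops in pIL-4 + IFNG. Klf13 had 6, 11, 23, 9 and 14. Klf14 had 51, 34, 50, 49 and 53 and was the one lower. Klf2, a regulator of quiescence in monocytes and endothelium, had 38, 48, 56, 42 and 53 and did not pass. The order of the lists for Klf6 was close to that for Klf4, and Klf13 peaked in M2p[pIL-4] instead. Klf5, Klf8 and Klf12 had no loop in any list.

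Of 15 partner genes, which are IL-4, STAT6 and KLF4 pathway genes, 13 had enough loops. In M2[IL-4] to M0[CTR] 2 passed upwards and 1 downwards, with a median log2 ratio of 0.16. Over all genes 8.49% passed upwards and 7.43% downwards, and the median was -0.02. Whether the list differs from all genes was not tested. Arg1, which encodes arginase, had 11 loops in M0[CTR], 30 loops in M2[IL-4], 16 loops in M2p[pIL-4], 15 loops in IFNG and 24 loops in pIL-4 + IFNG. Egr2, a transcription factor induced by IL-4, had 48, 81, 64, 48 and 77. Mrc1, the mannose receptor, had 21, 14, 23, 13 and 25 and passed downwards. Stat6 itself had 46, 54, 55, 49 and 52, a log2 ratio of 0.10, and the IL-4 receptor gene Il4ra 32, 27, 43, 36 and 42, a log2 ratio of -0.36. Socs1, an inhibitor of cytokine signalling, had 89, 109, 108, 93 and 108, the most of the list and more than Klf4 in 4 lists. Arg1 had a larger log2 ratio of M2[IL-4] to M0[CTR] than Klf4, at 1.24.

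The genes whose 5 scaled loop numbers most resembled those of Klf4 were found among 3382 genes with 30 or more loops in each list and over 1 Mb away. Gstm5, Eps8l3, Gstm7 and Gstm6, which are neighbours on chromosome 3 and share loops, differed from it by 0.055 to 0.071 (root mean square of log2 values over the 5 lists). S100pbp on chromosome 4 differed by 0.075, with 48, 73, 68, 61 and 68 loops. By scaled number, each of the 5 was lowest in M0[CTR] and highest in M2[IL-4], the order by which Klf4 was matched.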

How the data were processed

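Hi-C was run on 10 samples, grouped by their titles into 5 groups of 2 replicates. The authors deposited 1 loop list per group, in which both replicates appear to be pooled. Each line held a pair of 10 kb bins and, in the deposited column used here, the count of contacts, as integers of at least 5 that carry no normalization. The authors' methods give the nf-core/hic pipeline (HiC-Pro, bowtie2), map balancing and HICCUPS at 25 kb, and the submitters' notes name mm10, Juicer and HOMER. The caller and threshold behind the 10 kb lists are not given in the sources used here. A higher calling threshold or a deeper library changes which weak, long loops are listed, and the lists held 53424 to 67728 loops and 2174945 to 2787117 contacts; sequencing depth cannot be read from them, since uncalled pairs are missing.

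The members and lists were chosen with earlier results of these data known. Genes came from GENCODE M21 (GRCm38). A loop was near a gene when an anchor bin overlapped 100 kb on either side of its TSS, and a loop with both anchors there counted once. Numbers were compared as log2 ratios after adding 1 and dividing by list length, called at 1.5-fold, for genes with 10 or more loops in both lists together. Counts at bin pairs called in both lists were scaled by their sum and compared by a two-sided exact binomial test with Benjamini-Hochberg adjustment. On simulated data for M2[IL-4] to M0[CTR] it called 191 of 200 seeded 3-fold changes and 10 others of 25934 bin pairs. That covers bin pairs of the whole series. Counts near Klf4 were lower, with medians of 12 to 14 against 32 over whole lists, and recovery at such counts was not measured. Intervals are exact, at 95%, and cover counting error only. Loops named were those of the TSS bin (1-list loops of 400 kb or more as a count), those called in all 5 lists or in the 3 IL-4-exposed lists alone, and the strongest of each list. Genes named were those with a TSS in a partner bin (1 such bin is not reported here), members of the KLF and partner lists, and the 5 most similar genes. Others were chosen after their values were seen. Sequences came from RefSeq for GRCm38.p6. The software was scipy 1.17.1, pandas 2.3.3 and numpy 2.4.6 under Python 3.11.15, with matplotlib 3.10.9 for plots.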

Additional observations from a re-analysis of the deposited data

How the results depend on the processing

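No paired analysis was possible because both replicates of a group share 1 list. Of 114 alternative values for 17 results, 92 stayed on the same side or within error, 22 moved and 0 reversed. The cause of the moves was not tested. Crossing the 1.5-fold mark did not by itself count as a move. M2[IL-4] to M0[CTR] at 1.26-fold, with touching bin pairs merged, was among those that stayed. Changes of sign could count as moves and not as reversals, such as M2p[pIL-4] to M2[IL-4] from -0.360 to 0.091. Loops with at least 20 contacts gave log2 ratios of 0.875 for M2p[pIL-4] to M0[CTR] and -0.431 for pIL-4 + IFNG to M2p[pIL-4], and merging touching bin pairs gave 0.091 when M2p[pIL-4] was set against M2[IL-4]. Among alternatives chosen after seeing the data (the TSS bin alone, spans of 500 kb or more, leaving out bins -3 to -1, scaling by loops of 500 kb or more), the TSS bin alone gave 0.131 when M2p[pIL-4] was set against M2[IL-4], -0.042 for IFNG to M0[CTR] and -0.470 for pIL-4 + IFNG to M2p[pIL-4]. The shares matched in M0[CTR], for M2[IL-4], M2p[pIL-4], IFNG and pIL-4 + IFNG in that order, were 25.862%, 23.810%, 27.174% and 18.692% in the same bins, 94.828%, 92.381%, 93.478% and 97.196% within 50 kb, and 91.489%, 91.765%, 90.789% and 91.139% with a window of 50 kb. The share of gained loops kept after washout was 24.419% in the same bins and 100% within 50 kb. At bin pairs in all 5 lists, contacts gave log2 ratios of -0.409 for IFNG to M0[CTR] and 0.201 for pIL-4 + IFNG to IFNG. With 7 to 56 contacts per loop, counting error alone could put many pairs on either side of a call.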
